A study of Danio rerio with 2 samples.

Results

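Heat shock proteins and chaperonins are the folding helpers of the cell, and their transcripts were compared between hearts of adult zebrafish kept in atropine and in water after part of the ventricle had been cut away. The genes were chosen by name, with earlier results of these data known. Included were genes whose single symbol in the array maker's annotation starts with hsp or dnaj, or with cct followed by a digit. This gave 63 probe sets for 56 genes, out of 8793 genes with a single symbol on the array. The classes held 4 hsp90 genes, 11 hsp70 genes, 3 small heat shock protein genes, 28 dnaj genes and 7 cct genes. Of 3 others with an hsp symbol, hspd1 and hspe1 encode the mitochondrial chaperonin and its lid, and hspbp1 encodes a regulator of HSP70.

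In all fish about 20% of the ventricle was removed at the apex, and whole hearts were taken 24 hours later. One group was exposed to atropine, which blocks the muscarinic acetylcholine receptors through which the vagus nerve slows the heart, and the other to water. No transgene or mutant line is named in the labels, and neither the dose of atropine nor the exact age and strain of the adult fish is stated in the labels. RNA from a pool of 15 hearts per group was hybridised to 1 Affymetrix zebrafish array, so there are 2 arrays, no replicates and no tests. Each value describes these pools only, their number limits the precision, and probe levels of different genes cannot be set against each other.

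HSP90 and HSP70 proteins use ATP to hold and release unfolded or unstable client proteins, and DNAJ proteins, also called HSP40s, bring clients to HSP70 and start its ATP cycle. Small heat shock proteins bind unfolding proteins without ATP and are abundant in muscle. The CCT proteins form the ring-shaped cytosolic chaperonin in which actin and tubulin fold. Heat shock factor 1, encoded by hsf1, switches on the heat-inducible members when unfolded protein accumulates in the cytosol, whereas the members in the endoplasmic reticulum answer to the unfolded protein response. The roles given for single genes are those of their mammalian counterparts unless zebrafish are named.

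The deposited values are on a log2 scale, and a difference is log2 in atropine minus log2 in water, as deposited. Where a gene had several probe sets, the brightest by its mean over both arrays stood for it. Genes entered the comparison when at least 1 of their values reached 4.05, the median of all non-control values. By this filter 47 of the 56 genes were compared, all 47 of them at or above 4.05 on both arrays, against 5294 genes on the whole array. Their median difference was 0.02, and that of all genes compared was -0.01. The standard deviation of the differences was 0.25 among the 47 genes and 0.27 among all genes, or 0.20 among the 47 without hsp90aa1.2. In 27 of the 47 genes the difference was above 0, and 47.8% of all genes compared were higher in atropine.

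Only hsp90aa1.2 and dnajb1b were at least 1.5-fold higher in atropine-exposed hearts, and 0 of the 47 were at least 1.5-fold lower. The background is 1.87% of genes for 1.5-fold higher, 2.12% for 1.5-fold lower and 3.99% for either direction, so 2 of 47 genes, or 4.26%, is near what the whole array shows. At least 2-fold higher was 1 of 47, hsp90aa1.2, against 0.397% of all genes. For 2-fold lower the background is 0.359%, and for either direction 0.756%. Differences under 1.2-fold, a threshold chosen after seeing the data, were found in 37 of the 47 genes, or 78.7%, against 75.6% of all genes compared. The 8 genes between 1.2-fold and 1.5-fold were hsp70.3 and cct2, higher in atropine, and dnajb11, dnajc12, hspb8, hspb1, hspa14 and hsp90b1, lower in atropine. That makes 4 genes at least 1.2-fold higher and 6 lower, against backgrounds of 10.5% higher, 13.9% lower and 24.4% in either direction. At a difference of 0.32 (log2) or more, 4 genes were higher and 3 lower, against backgrounds of 7.42% higher, 9.43% lower and 16.8% in either direction. Directions are as deposited. A scaling to the spike-in transcripts added before labelling would add 0.48 to every difference, all genes on the array included. It would put 47 of the 47 above 0. A scaling to the cardiomyocyte markers would add 0.23 and put 41 of 47 above 0. Both shifts come from medians of widely spread values, so their size is uncertain. The spike-ins ran from -0.86 to -0.13 and the cardiomyocyte markers from -1.41 to 0.003.

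**Figure D1:**
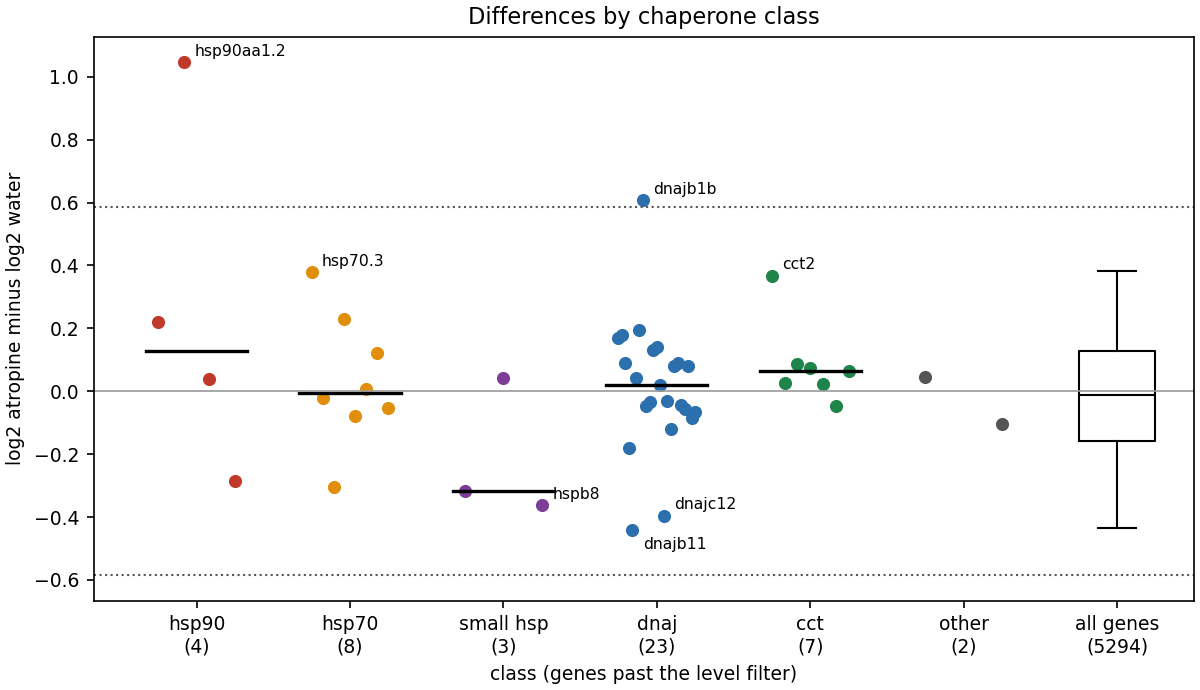
Difference of each gene, log2 atropine minus log2 water, by class (points), with the class median as a black line where a class has 3 or more genes past the level filter, beside all 5294 genes compared (box from the lower to the upper quartile with its median, whiskers at the 5th and 95th percentiles), and with dotted lines at 1.5-fold. Only hsp90aa1.2 at 1.05 and dnajb1b at 0.61 lie beyond the upper dotted line, and no gene lies beyond the lower one.

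The hsp90 genes went different ways. The gene hsp90aa1.2 encodes a cytosolic HSP90 alpha and had a value of 7.68 in atropine, against 6.64 in water. This was a difference of 1.05, or 2.06-fold higher, and it ranked 18th from the top among the 5294 genes. Its second probe set had 5.92 in atropine, against 5.09 in water, a difference of 0.84 in the same direction. Both probe sets of hsp90aa1.2 were thus more than 1.5-fold higher in the atropine pool, and since they measured the same RNA they bear on measurement error only.

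The gene hsp90aa1.1 encodes the other HSP90 alpha, which in zebrafish embryos is made in skeletal muscle and is needed there for myosin to fold. It had 7.94 in atropine, against 7.72 in water, a difference of 0.22. The genes hsp90aa1.1 and hsp90aa1.2 lie next to each other in the RefSeq annotation of the GRCz12tu assembly, with 0 protein-coding genes between them. Their probe sets may share signal, but the sequences were not compared here. A probe set annotated to both genes, which is therefore outside the 63, had 5.92 in atropine, against 5.55 in water. Its difference of 0.37 lies between the 0.22 of hsp90aa1.1 and the 0.84 of the second probe set of hsp90aa1.2. How the signal divides between this gene pair is uncertain.

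The constitutive cytosolic gene hsp90ab1, which encodes HSP90 beta, had 11.35 in atropine and 11.31 in water, a difference of 0.04. Its other probe set read 2.57 in atropine and 2.50 in water, below the filter, so its difference of 0.06 carries little weight. The gene hsp90b1 encodes GRP94, the HSP90 of the endoplasmic reticulum. It had 8.42 in atropine, against 8.71 in water, a difference of -0.29, and it was the only hsp90 gene that was lower in atropine. The class median was 0.13 over 4 genes, with differences from -0.29 to 1.05, so it stands for no single member.

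**Figure D2:**
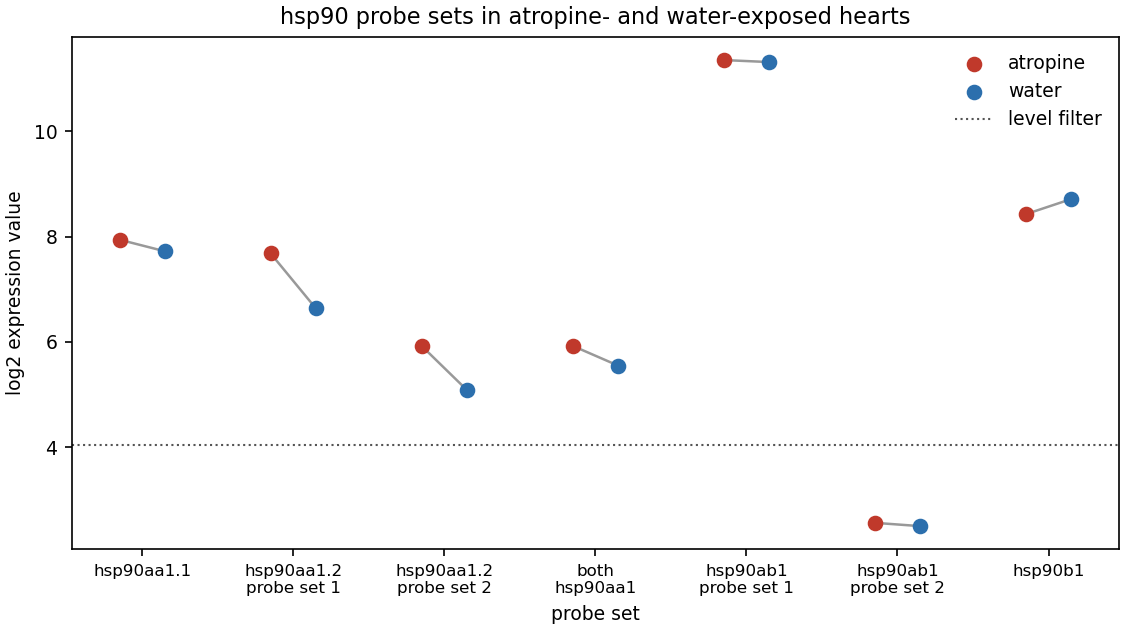
Log2 expression value of every hsp90 probe set in atropine (left point of each pair) and water (right point), with the probe set annotated to both hsp90aa1 genes in the middle and the level filter of 4.05 as a dotted line. Both probe sets of hsp90aa1.2 are higher in atropine by 1.05 and 0.84, whereas hsp90ab1 is nearly level at its first probe set and hsp90b1 is lower by 0.29.

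In the hsp70 class no gene reached 1.5-fold, and the 8 genes compared of 11 had a median difference of -0.01, with 4 above 0 and 4 below. The largest was that of hsp70.3, a heat-inducible cytosolic HSP70, with 5.85 in atropine and 5.47 in water, a difference of 0.38 or 1.30-fold. It was the 272nd of 5294 from the top. The probe set can take up related transcripts by its manufacturer's type. A probe set annotated to hsp70.3 and to other inducible hsp70 genes at once, also outside the 63, had 5.91 in atropine and 5.84 in water, a difference of only 0.06. The value for the inducible hsp70 genes therefore differs with the probe set that is read. Another inducible gene, hspa1b, was at 3.98 in atropine and 3.69 in water, below the filter on both arrays.

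The constitutive cytosolic HSP70 gene hspa8 had 11.75 in atropine and 11.63 in water, a difference of 0.12. The genes hspa4a and hspa4b encode HSP110-type proteins that help HSP70 exchange its nucleotide. The first had 7.60 in atropine and 7.37 in water, a difference of 0.23, and the second 7.29 in atropine and 7.37 in water, one of -0.08. These paralogs thus had opposite signs, each within the range of most genes on the array. The gene hspa14, whose mammalian product sits on ribosomes, was lowest of the class, with 6.15 in atropine and 6.46 in water, a difference of -0.30. For hspa5, which encodes BiP, the HSP70 of the endoplasmic reticulum and a standard readout of the unfolded protein response, the values were 8.97 in atropine and 8.96 in water, a difference of 0.01. The mitochondrial hspa9 differed by -0.05 on its brighter probe set (8.97 in atropine, 9.02 in water) and by 0.16 on the other (5.90 in atropine, 5.74 in water). The distant relative hspa12a differed by -0.02. Below the filter were also hspa8b and hspa4l.

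Of the 3 small heat shock protein genes, hspb1 and hspb8 were lower in atropine and hspb6 was nearly level. The gene hspb1, which encodes HSP27, had 10.60 in atropine, against 10.92 in water, a difference of -0.32. For genes with a mean level of 10 or more, 5% of the 230 on the array had a difference below -0.23, and hspb1 was beyond that limit. The gene hspb8, whose mammalian product works with BAG3 in clearing damaged muscle proteins, had 6.98 in atropine, against 7.34 in water, a difference of -0.36. The muscle gene hspb6 had 10.10 in atropine and 10.06 in water, a difference of 0.04. The class median of -0.32 is the value of hspb1 itself and is 0.30 below the median of all genes.

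**Figure D3:**
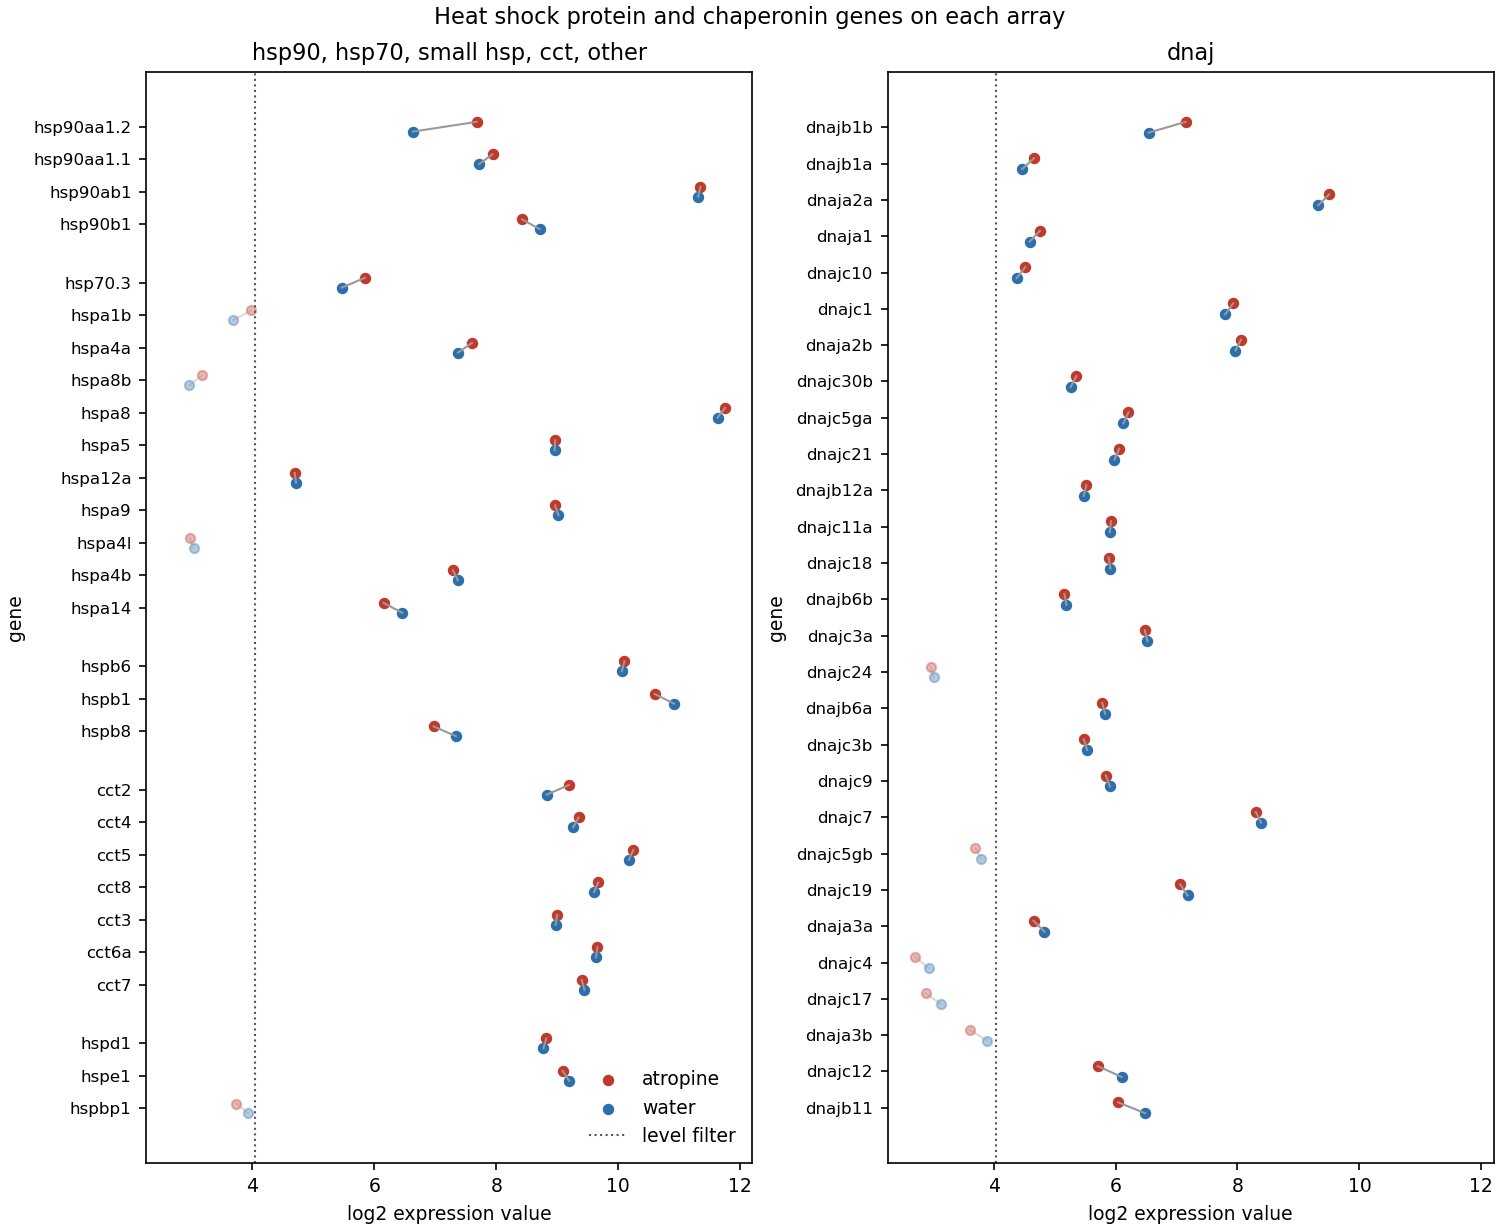
Log2 expression value of each of the 56 genes in atropine (upper point of each pair) and water (lower point), in blocks by class and ordered within each block from the largest to the smallest difference, with the level filter of 4.05 as a dotted line and genes below it drawn pale. Levels of different genes are not comparable, and within a gene the points are at least 1.5-fold apart only in hsp90aa1.2 and dnajb1b.

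Of 28 dnaj genes 23 were compared, with a median difference of 0.02, 12 above 0 and 11 below. The gene dnajb1b, whose mammalian counterpart is a heat-inducible partner of HSP70, was highest. It had 7.15 in atropine, against 6.54 in water, a difference of 0.61 or 1.52-fold higher, and ranked 86th from the top among 5294 genes. With an offset of 16 added on the linear scale the difference of dnajb1b was 0.53, which is under 1.5-fold. Its paralog dnajb1a had 4.66 in atropine and 4.47 in water, a difference of 0.19.

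The lowest was dnajb11, whose product is the DNAJ partner of BiP in the endoplasmic reticulum. It had 6.04 in atropine, against 6.49 in water, a difference of -0.44 or 1.36-fold lower, 259th from the bottom among all genes. Next to it came dnajc12, whose human product binds the aromatic amino acid hydroxylases, with 5.71 in atropine and 6.10 in water, a difference of -0.40. These genes lay on the opposite side from dnajb1b, and each was measured by a single probe set.

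By subfamily, 3 of 4 dnaja genes were above 0, with a median of 0.13. The HSP70 partner dnaja2a had 9.50 in atropine and 9.32 in water, a difference of 0.18, and dnaja1 had 4.76 in atropine and 4.59 in water, a difference of 0.17. The gene dnaja2b differed by 0.09 on its brighter probe set and by 0.32 on the other, which had 5.88 in atropine and 5.56 in water. The mitochondrial dnaja3a was lower in atropine by a difference of -0.18. Among the 6 dnajb genes the median was 0.00, with dnajb12a at 0.04, dnajb6b at -0.03 and dnajb6a at -0.05. A second dnajb6a probe set below the filter had the opposite sign (3.88 in atropine, 3.54 in water).

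The 13 dnajc genes compared, of 17, had a median of -0.03 and, apart from dnajc12, differences between -0.12 and 0.14. In the endoplasmic reticulum, dnajc10, which encodes a disulfide reductase, differed by 0.14 and dnajc1 by 0.13, while dnajc3a and dnajc3b, whose products dampen the stress kinase that halts translation, differed by -0.04 and -0.06. The mitochondrial import gene dnajc19 had 7.06 in atropine and 7.18 in water, a difference of -0.12. The HSP70 and HSP90 adaptor gene dnajc7 had 8.30 in atropine and 8.39 in water, a difference of -0.09. The remaining dnajc genes, dnajc30b (0.09), dnajc5ga (0.08), dnajc21 (0.08), dnajc11a (0.02), dnajc18 (-0.03) and dnajc9 (-0.07), stayed within 0.1 of no difference. Below the filter were dnaja3b, dnajc4, dnajc5gb, dnajc17 and dnajc24.

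The cct genes differed least among themselves, apart from cct2. Leaving cct2 out, the 6 others had differences from -0.05 to 0.09. Highest was cct2, with 9.19 in atropine and 8.83 in water, a difference of 0.37 or 1.29-fold, and its second probe set, below the filter, had 3.58 in atropine and 3.63 in water. For the ring's other subunits the differences were 0.09 for cct4, 0.07 for cct5, 0.06 for cct8, 0.02 each for cct3 and cct6a and -0.05 for cct7. The gene cct5 had 10.25 in atropine and 10.18 in water, and cct6a had 9.66 in atropine and 9.64 in water. The subunit gene tcp1, which the naming rule leaves out, had 8.72 in atropine and 8.78 in water, a difference of -0.06. The class median was 0.06, and 6 of the 7 were above 0 against 47.8% of all genes. The gap between cct2 and the next subunit was wider than the whole range of the others.

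For the mitochondrial chaperonin, hspd1 had 8.82 in atropine and 8.78 in water, a difference of 0.04, and hspe1 had 9.09 in atropine and 9.20 in water, a difference of -0.11. These genes are also neighbours in GRCz12tu, with 0 protein-coding genes between them. Both probe sets of hspbp1 were below the filter and had opposite signs, at 3.74 in atropine and 3.93 in water for the brighter and 3.80 in atropine and 3.59 in water for the other.

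All 9 genes below the filter had values between 2.71 and 3.98, where a probe set may report background, and their differences ran from -0.29 to 0.30. With these included the median of all 56 genes was 0.01, and that of all 8793 genes was 0.00. Several probe sets existed for 7 genes. In hsp90aa1.2, hsp90ab1 and dnaja2b the probe sets shared their sign, but for hsp90ab1 1 of them was below the filter. In hspa9, cct2, dnajb6a and hspbp1 they did not share it, with at least 1 probe set below the filter in the last 3 of these.

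The differences were also set against those of genes of similar level. With 1 array per group, this spread cannot separate measurement error from real differences between the pools. The limits below are therefore not limits of noise. Of genes with a mean from 6 to below 8, the middle 90% of 1950 lay between -0.46 and 0.40. Among the 13 chaperone genes in that range, hsp90aa1.2 and dnajb1b were outside it. Between 4 and below 6 the limits were -0.43 and 0.37 over 2422 genes, with hsp70.3 outside among 15. From 8 to below 10 they were -0.42 and 0.37 over 633 genes, with 0 of 14 outside. At 10 or more, 1 of 5 was outside, hspb1. In all, 4 of 47 lay outside limits that by construction leave out 10% of genes.

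**Figure D4:**
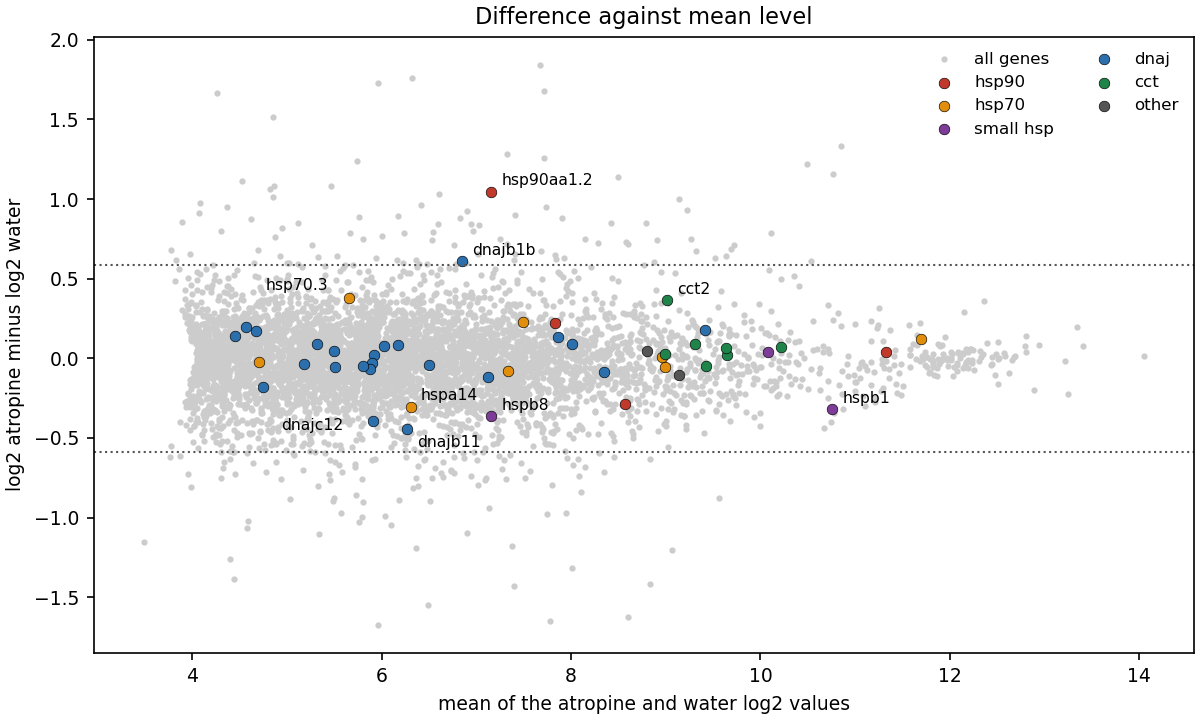
Difference, log2 atropine minus log2 water, against the mean of both log2 values, for all 5294 genes compared (grey) and for the 47 chaperone genes coloured by class, with dotted lines at 1.5-fold. Most chaperone genes lie between the dotted lines, hsp90aa1.2 is the highest of them at a mean of 7.16 and ranks 18th from the top among all genes, and hspb1 lies at the lower edge among the brightest genes.

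The regulators and partners of these proteins were taken from lists drawn up beside the main genes. For every list the background is 1.87% of all genes for 1.5-fold higher and 2.12% for 1.5-fold lower. Above 0 were 47.8% of all genes compared. The transcription factor gene hsf1 had 6.55 in atropine and 6.39 in water, a difference of 0.16, and hsf2, which encodes a related factor, had 5.61 in atropine and 5.25 in water, one of 0.36. The gene hsbp1a, for a small protein that binds heat shock factor 1, had 3.78 in atropine and 4.34 in water, a difference of -0.56, and passed the filter on the water array only. Of the 4 genes of this list that were compared, 0 were 1.5-fold apart.

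Among 16 hsp90 co-chaperone genes 1 was at least 1.5-fold higher, 0 were as much lower, and the median was -0.07. It was fkbp5, which encodes an immunophilin that sits with HSP90 on steroid receptors, with 10.08 in atropine and 9.37 in water, a difference of 0.71. The lowest was tsc1a, which encodes a growth regulator that also binds HSP90, with 5.97 in atropine and 6.47 in water, a difference of -0.50. Of co-chaperones that act on the HSP90 cycle itself, picked once the values were known, paralogs had opposite signs. The p23 gene ptges3a differed by 0.41 and ptges3b by -0.08, the genes for activators of its ATPase by 0.22 (ahsa1b) and -0.18 (ahsa1a), and those for kinase adaptors by 0.05 (cdc37) and -0.07 (cdc37l1). In the whole list 7 genes were above 0 and 9 below. The myosin chaperone gene unc45b, a partner of HSP90 alpha in muscle that was also picked after its value was seen, had 6.90 in atropine and 7.11 in water, a difference of -0.21.

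Among 10 hsp70 co-chaperone genes, 0 were 1.5-fold apart in either direction, the median was 0.08, and the extremes were bag2 at 0.52 and tomm34 at -0.31. The gene bag2, whose product helps HSP70 release nucleotide, had 5.66 in atropine and 5.13 in water. Of 11 chaperonin partners, among them tcp1 and the prefoldin genes, 0 were 1.5-fold apart, with a median of -0.07. In this list 2 genes were above 0 and 9 below. Several of these differences were small, such as -0.06 each for tbca and for tcp1, which is itself a subunit of the ring. The extremes of the list were txndc9 at 0.41 and pdcl3 at -0.32, both for phosducin-like cofactors of the chaperonin.

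In the list for folding in the endoplasmic reticulum and its stress response, 1 of 25 genes was at least 1.5-fold higher and 0 were as much lower. The median was -0.04, with 10 above 0 and 15 below, against 47.8% of all genes above 0. The higher gene was ero1a, an oxidase that forms disulfide bonds, with 7.37 in atropine and 6.57 in water, a difference of 0.80. The lowest was manf, for a secreted stress-induced protein, with 6.15 in atropine and 6.53 in water, a difference of -0.38. The protein disulfide isomerase genes pdia3, pdia4, pdia5 and pdia6, picked once the values were known, differed by -0.26, -0.26, -0.21 and -0.30. The stress transcription factor gene xbp1 differed by -0.01. Other genes of the list, also picked after their values were seen, went the other way. Among these, ppp1r15a differed by 0.34, atf4b by 0.26 and atf4a by 0.14. The 9 other chaperone, ubiquitin and protease genes outside the naming rule, such as ube4b (0.09) and afg3l2 (-0.12), had a median of 0.02, and 0 were 1.5-fold apart.

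**Figure D5:**
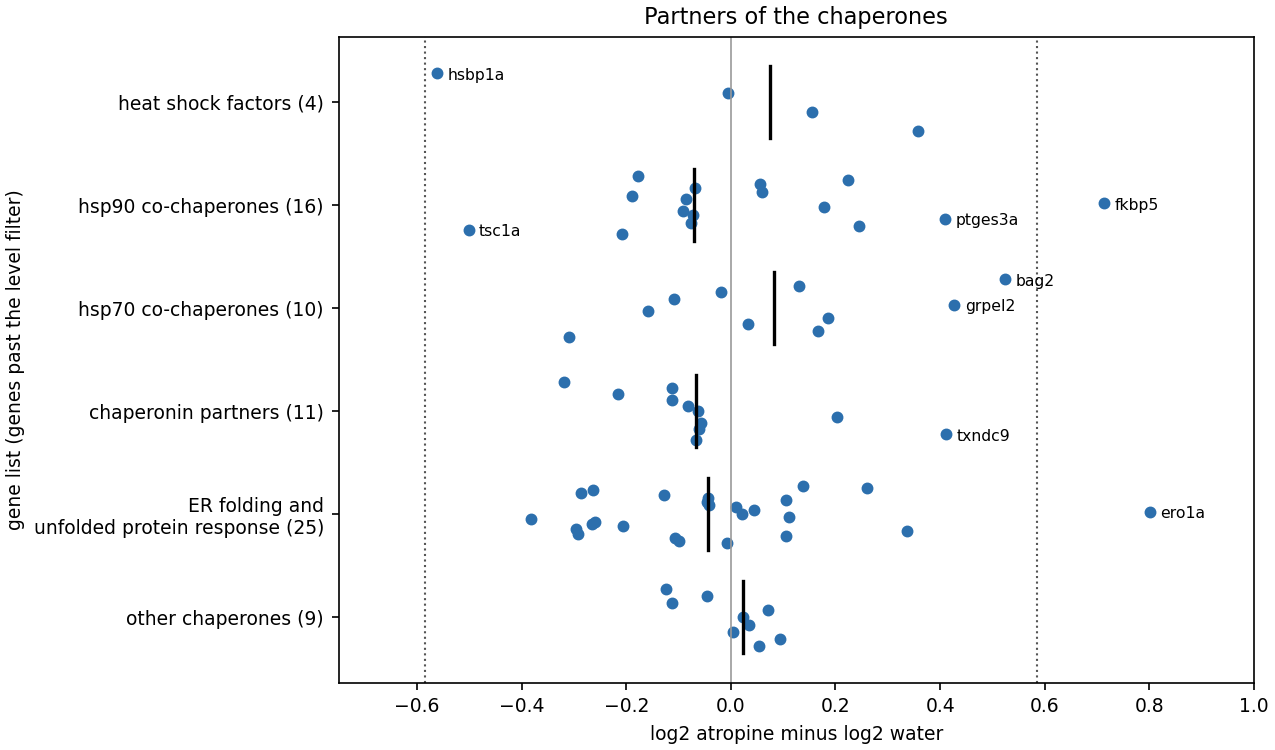
Difference, log2 atropine minus log2 water, of each gene past the level filter in 6 lists of regulators, partners and other chaperones (points), with each list's median as a black line and dotted lines at 1.5-fold. Only fkbp5 at 0.71 and ero1a at 0.80 lie beyond 1.5-fold, and hsbp1a at -0.56 falls just short of it on the other side.

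The arrays also differed in markers of several cell types, and whether these changes account for any difference above was not tested. In a whole heart, fewer cells of a type and less RNA per cell cannot be told apart. The background is 1.87% of all genes compared for 1.5-fold higher and 2.12% for 1.5-fold lower. Of 10 red blood cell markers found, 7 were at least 1.5-fold higher in atropine. The summed linear level of the 10 was 16425 in atropine and 12455 in water. The neutrophil list had 5 of 6 at least 1.5-fold lower (sums of 1392 and 2085 in atropine and water). As much lower were 4 of 7 in the macrophage list (2076 and 3717) and 3 of 7 in the fibroblast and matrix list (916 and 1461). Each sum is weighted to its brightest probe sets, whose levels are not comparable between genes. The brightest red blood cell marker, hbaa1, differed by 0.20 against a list median of 0.74. In the neutrophil list srgn differed by 0.16 against a list median of -0.90. In the macrophage list csf1ra differed by 0.10 against a list median of -0.79. For fibroblast and matrix, postnb differed by 0.10 against a list median of -0.50. The 7 cardiomyocyte markers found were all past the filter, with a median of -0.23, and the lowest of their values was 5.76. At least 1.5-fold lower were 2 of them, tnnc1a (-1.41) and myh7 (-1.19), whereas myl7 (-0.02), tnnt2a (0.003) and cmlc1 (-0.09) were nearly level. Of the 7, 1 was above 0 and 6 were below. Of 4 endothelial markers found, 0 were 1.5-fold apart. The lowest value of any of these markers on either array was 4.15, so none was near the lowest values on the arrays. Spike-in transcripts added before labelling were lower in atropine in all 13 probe sets past the filter, with a median of -0.48. Some of these probe sets measure the same transcript, so they are not 13 separate measurements. A scaling to the spike-ins would put hsp90b1 at a difference of 0.19.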

How the data were processed

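RNA from whole hearts was labelled with the Affymetrix 3' IVT Express protocol, per the labels' protocols. The authors deposited a table with 1 value for each probe set on each array. Neither software nor normalization is named in the labels. A log2 scale was taken from the values, which the authors deposited between 2.02 and 14.05. The sorted values of the arrays differ by at most 0.15, as after a between-array normalization, so differences are relative to other genes. Detection calls were not used here. Depth in counts does not apply.

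Of 15502 non-control probe sets, 10795 had 1 symbol in the platform annotation, 135 several and 4572 none. All 56 genes matched the RefSeq gene table by Entrez identifier. No coordinates are given. Gene order was taken from the RefSeq annotation of the GRCz12tu assembly. Called means at least 1.5-fold apart. Folds were computed from the log2 differences. The classes, members and lists were chosen with earlier results of these data known. The naming rule covered all hsp90 probe sets and, per class, genes at least 1.5-fold apart, the 2 brightest, the extremes, every gene outside the main classes, hsf1 and the extremes of each partner list. All other genes were named after their values were seen. Alternatives were other scalings, level filters, an offset, probe set choices and thresholds. Python 3.11.15, numpy 2.4.6, pandas 2.3.3 and statsmodels 0.14.6 were used.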

Additional observations from a re-analysis of the deposited data

How the results depend on the processing

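No paired analysis was possible because each group has 1 array. With 1 array per group no value has a replicate error, and a value was counted as moved when it shifted by 0.1 or more (log2). Genes at least 1.5-fold higher numbered 2 of 47, and 0 were lower. The number higher was 4 after re-centring on the cardiomyocyte markers (5.80% of all genes), 12 after re-centring on the polyadenylated spike-ins (28.6%), 1 with 16 added on the linear scale (1.15%) and 1 at 2-fold (0.397%). At a threshold of 0.32 (log2) it was 4, with 3 lower (7.42% and 9.43% of all genes), and at 1.2-fold, chosen after seeing the data, 4, with 6 lower (10.5% and 13.9%). These re-centrings put the median of all genes at 0.21 and 0.47. The hsp90 differences moved with them to 0.45 and 0.70 for hsp90aa1.1, to 1.27 and 1.52 for hsp90aa1.2 and 1.06 and 1.32 for its second probe set, to 0.26 and 0.52 for hsp90ab1 and 0.29 and 0.54 for its second probe set, and to -0.060 and 0.19 for hsp90b1. With the offset the probe sets of hsp90aa1.2 differed by 0.94 and 0.62. Relative to all genes, the class medians of hsp90 (0.13 to 0.16), small heat shock proteins (-0.32 to -0.29) and cct (0.06 to 0.10) kept their sign under the 10 alternatives run on them. Of these, 3, median centring and the re-centrings, shift every gene alike and so could hardly change it. The level filters left the values of all genes in these classes as they were. The probe set choices did the same for small heat shock proteins, and so did leaving out probe set types for hsp90. The offset keeps the sign of each gene's difference. These settings could hardly change those signs either. Quantile normalization was a weak check, since the sorted values of the arrays already differed by at most 0.15. The median of hsp70 (-0.03 to 0.04) and that of dnaj (-0.04 to 0.10) each changed sign under 2, so neither has a direction. Both changed sign when probe sets whose type can take up more than 1 transcript, of the same gene or of related genes, were left out. Small heat shock proteins are 3 genes and hsp90 4, so their medians rest on few values.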
